A study of Mus musculus with 9 samples.

Results

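The circadian clock genes examined here are Clock, Npas2, Per1, Per2, Per3, Cry1, Nr1d1, Nr1d2, Dbp and Tef, 10 of the 19505 named genes that the mouse Clariom S array measured in white adipose tissue. They were taken by gene symbol, and each had 1 transcript cluster, the probe set that reports one transcript locus. The study compared 3 groups of 3 arrays. The first was male leptin-deficient C57BL/6JHamSlc-ob/ob mice given 100 mg/kg VE, an extract of Vigna umbellata (rice bean), by oral gavage for 6 weeks. The second was ob/ob mice given vehicle, and the third was wild type C57BL/6JHamSlc-+/+ mice given vehicle. All mice were 6 weeks old at purchase and were kept on standard chow under 12 h of light and 12 h of dark. Leptin is missing as a hormone from every ob/ob mouse, treated or not, so VE was tested within leptin deficiency only. The fat depot and the hour at which tissue was taken are not given in the sources used here, nor is it stated that each array came from a different mouse. Values are log2 array levels, and a difference of 1 log2 unit is a doubling on the array's scale.

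The mammalian clock is a loop of transcription that each cell runs with a period of about a day. CLOCK, or its relative NPAS2, pairs with BMAL1 (the product of Arntl) and switches on genes that carry E-boxes, among them the Per and Cry genes, whose proteins return to block the pair. A second loop runs through REV-ERB alpha and beta (Nr1d1 and Nr1d2), which repress Arntl, and an output branch runs through DBP and TEF, factors that bind D-boxes. In fat the clock is known for daily rhythms in lipid release and in adipokine secretion. The level of several of these transcripts in one tissue swings widely over the day, so a single collection time gives 1 point of a cycle, and whether the groups were collected at the same hour was not tested.

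The promoter windows of the genes with the largest differences between groups, and of Per1 and Cry1 for comparison, are printed for the clock motifs they do or do not hold. RefSeq windows on GRCm38.p6, from 250 bases before to 50 bases after an annotated start, were given for 9 of the 10 genes. Capitals mark the E-box (CACGTG), the related AACGTG or CACGTT, and the D-box (TTANGTAA or TTACNTAA), searched on both strands, and sequences run 5′ to 3′ on the gene's strand. Per3 lies on the minus strand at chr4:151044616-151044915, Per1 on the plus strand at chr11:69098699-69098998, Cry1 on the minus strand at chr10:85185005-85185304, Nr1d2 on the minus strand at chr14:18239057-18239356, and Dbp on the plus strand at chr7:45704997-45705296.
Per3: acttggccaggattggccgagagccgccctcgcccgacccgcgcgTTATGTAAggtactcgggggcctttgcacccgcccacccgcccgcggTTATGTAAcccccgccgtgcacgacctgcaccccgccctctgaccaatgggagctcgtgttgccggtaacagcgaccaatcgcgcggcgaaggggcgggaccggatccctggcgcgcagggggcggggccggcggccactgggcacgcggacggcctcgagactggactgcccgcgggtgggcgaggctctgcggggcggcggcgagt
Per1: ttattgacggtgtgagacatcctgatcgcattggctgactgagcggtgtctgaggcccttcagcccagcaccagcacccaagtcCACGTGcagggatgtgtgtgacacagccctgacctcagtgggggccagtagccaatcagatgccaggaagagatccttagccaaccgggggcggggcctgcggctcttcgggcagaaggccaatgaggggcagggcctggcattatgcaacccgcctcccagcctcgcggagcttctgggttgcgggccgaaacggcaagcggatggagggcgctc
Cry1: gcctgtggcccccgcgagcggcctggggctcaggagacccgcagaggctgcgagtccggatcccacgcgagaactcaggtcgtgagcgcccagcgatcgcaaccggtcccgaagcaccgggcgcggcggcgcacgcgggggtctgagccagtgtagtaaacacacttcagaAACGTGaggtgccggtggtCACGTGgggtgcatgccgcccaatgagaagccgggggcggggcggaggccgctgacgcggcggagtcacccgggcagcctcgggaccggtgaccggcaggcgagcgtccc
Nr1d2: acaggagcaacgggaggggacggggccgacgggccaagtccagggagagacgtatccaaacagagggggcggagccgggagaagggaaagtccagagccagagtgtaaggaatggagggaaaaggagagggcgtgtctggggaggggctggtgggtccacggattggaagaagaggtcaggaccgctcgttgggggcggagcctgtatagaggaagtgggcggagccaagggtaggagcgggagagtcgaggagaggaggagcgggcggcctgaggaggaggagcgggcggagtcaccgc
Dbp: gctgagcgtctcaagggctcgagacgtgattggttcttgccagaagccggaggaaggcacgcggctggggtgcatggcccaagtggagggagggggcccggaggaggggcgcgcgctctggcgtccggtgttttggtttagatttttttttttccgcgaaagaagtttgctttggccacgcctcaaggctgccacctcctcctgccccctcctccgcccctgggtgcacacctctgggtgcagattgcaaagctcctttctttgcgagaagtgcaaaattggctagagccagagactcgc

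The Per3 window held 2 copies of the D-box TTATGTAA, with first bases at positions −205 and −158 from the start. Of all 32851 windows of this length, 2.32% held a D-box and 0.0822% held 2 or more. The printed Per1 window held an E-box at −166, whereas a second Per1 window, at chr11:69099902-69100201, held none of these motifs. Cry1 held AACGTG at −79 and an E-box at −60. E-boxes were in 7.15% of all windows, and AACGTG or CACGTT in 4.68%. Both Tef windows held an E-box (at −127 and −138) and Nr1d1 held AACGTG at −28, whereas these letters were not in the Nr1d2, Dbp, Clock or Npas2 windows. A match of letters is a description of the window and not a bound site.

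Array medians over named clusters lay between 6.26 and 6.37. Arrays of a group correlated at 0.982 to 0.988 in VE, at 0.980 to 0.987 in ob/ob vehicle and at 0.933 to 0.956 in wild type, so the wild type arrays were the least alike. All 11 measured adipocyte markers (Adipoq, Plin1 and Fabp4 among them) lay above the array median on every array. Wild type arrays 1 and 2 stood apart in epithelium markers, whose mean level over 14 genes was 4.55 to 5.0 in VE and 4.83 to 4.85 in ob/ob vehicle, against 9.80, 10.22 and 7.90 on wild type arrays 1, 2 and 3. Macrophage markers, 11 genes, averaged 13.26 to 13.60 in VE and 13.00 to 13.66 in ob/ob vehicle, against 7.46 to 8.59 in wild type. These samples are whole tissue, in which fewer cells of a type and less RNA per cell cannot be told apart, and the part of these markers in the clock gene results was not tested. The main results against wild type are therefore also given without wild type arrays 1 and 2. That fit leaves wild type array 3 alone in its group, assumes that it varies like the other groups, and still holds its raised epithelium markers, so its p-values rest on the spread of the ob/ob arrays.

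In ob/ob vehicle fat, Per3 was the clock gene that fell: it was 4.29-fold lower than in wild type fat. The other 9 clock genes did not pass the test, among them Nr1d2, whose levels were lower on all 3 ob/ob vehicle arrays. No clock gene rose. With limma's moderated test over all 19572 named clusters (called at a Benjamini-Hochberg adjusted p under 0.05, two-sided), 14.1% of clusters were called between these groups, so 1 of 10 clock genes is no more than that background. The median log2 difference over the 10 genes was −0.26, against −0.037 over all clusters.

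Per3 encodes a period protein, a partner of PER1 and PER2 in the repressing complex. Its level was 8.98, 9.50 and 8.42 on the ob/ob vehicle arrays, against 10.70, 11.42 and 11.08 on the wild type arrays. Every ob/ob vehicle array lay below every wild type array. Between the groups the log2 difference was −2.10 ± 0.37 (SE; 95% interval −2.93 to −1.27; limma adjusted p = 0.0046, n = 3 arrays a group). Against wild type array 3 alone it was −2.11, with a limma adjusted p of 0.0264.

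Nr1d2 encodes REV-ERB beta. It was at 11.63, 11.45 and 11.21 in ob/ob vehicle fat, against 12.36, 12.18 and 11.73 in wild type fat. The ranges did not overlap, though the highest ob/ob vehicle array lay close below the lowest wild type array. This is a log2 difference of −0.66 ± 0.24 (95% interval −1.2 to −0.12; limma adjusted p = 0.104). It was −0.97 after quantile normalization (limma adjusted p = 0.0428), −0.84 without wild type array 3 (limma adjusted p = 0.0433) and −0.30 without wild type arrays 1 and 2 (limma adjusted p = 0.632). Groups without overlap were found in 28.9% of all clusters, and in 2 of 10 clock genes (Per3 and Nr1d2). Nr1d1, which encodes REV-ERB alpha, was at 11.89, 11.86 and 11.01 in ob/ob vehicle fat, against 11.53, 11.08 and 11.86 in wild type fat. Its ranges overlapped, with a log2 difference of 0.10 (95% interval −0.71 to 0.91).

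**Figure D1:**
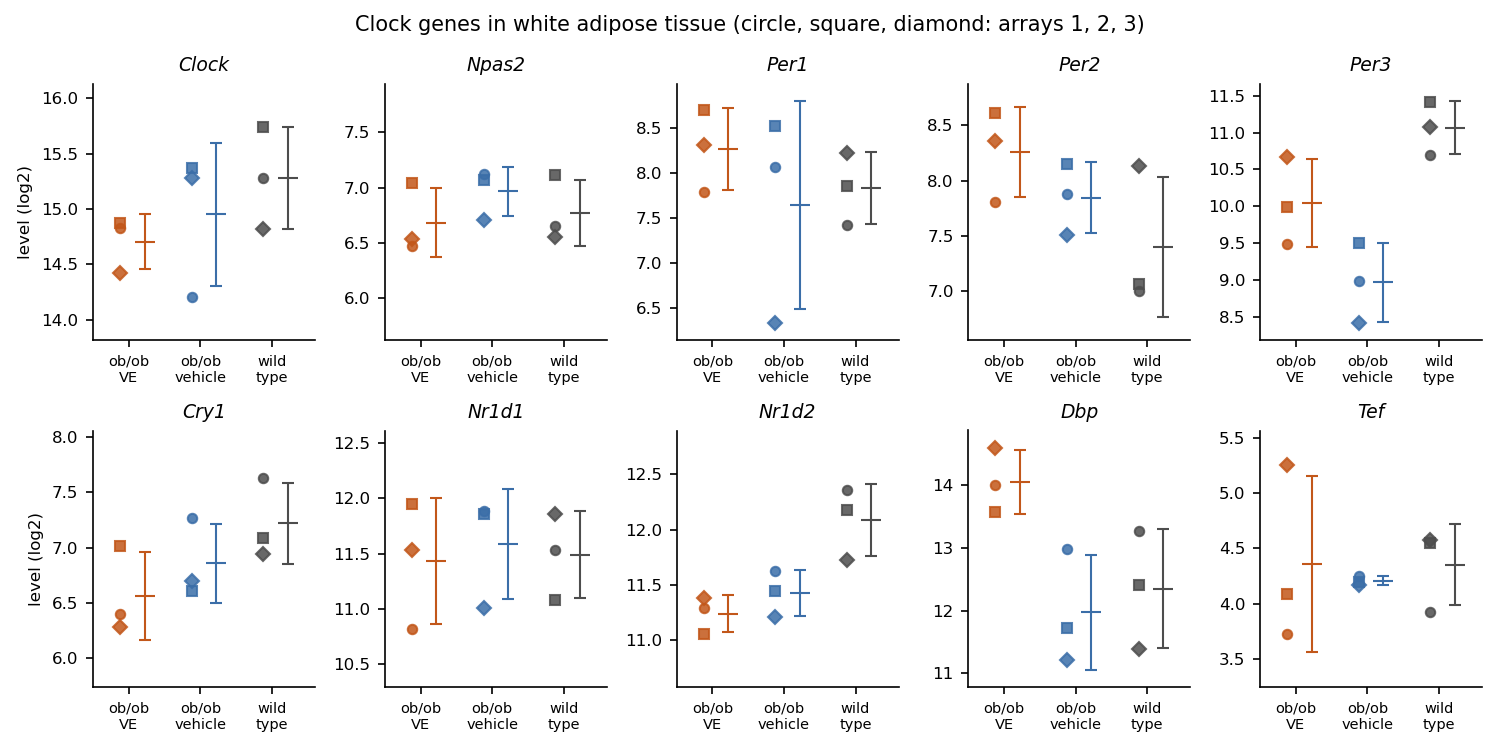
Log2 array level of the 10 clock genes (vertical axes, each with its own range) in ob/ob VE, ob/ob vehicle and wild type fat; points are arrays 1, 2 and 3 (circle, square, diamond) and bars are the mean ± SD of 3 arrays. Per3 lies lowest in ob/ob vehicle (8.42 to 9.50) and highest in wild type (10.70 to 11.42), and Dbp lies highest in VE (13.57 to 14.59).

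The activators did not pass the test. Clock, which encodes the DNA-binding partner of BMAL1, was at 14.21, 15.37 and 15.28 in ob/ob vehicle fat, against 15.28, 15.74 and 14.82 in wild type fat. The ranges overlapped, and the log2 difference was −0.33 with a 95% interval of −1.12 to 0.47. Npas2, which can stand in for CLOCK, differed by 0.20 (95% interval −0.38 to 0.77).

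Among the other repressors, Per1 was at 8.07, 8.53 and 6.34 in ob/ob vehicle fat, against 7.43, 7.86 and 8.23 in wild type fat. The third ob/ob vehicle array held the lowest Per1 level of all 9 arrays, while the other two lay inside or above the wild type range. Its log2 difference was −0.19 ± 0.51 (95% interval −1.33 to 0.95), the second widest interval of the 10 genes after Dbp. Per2 averaged 7.85 ± 0.32 in ob/ob vehicle fat and 7.40 ± 0.63 in wild type fat (SD, n = 3 each), a log2 difference of 0.45 (95% interval −0.34 to 1.23). Cry1, which encodes a cryptochrome that blocks CLOCK and BMAL1, averaged 6.86 ± 0.36 in ob/ob vehicle fat and 7.22 ± 0.36 in wild type fat, a log2 difference of −0.36 (95% interval −1.03 to 0.31).

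In the output branch, Dbp averaged 11.97 ± 0.91 in ob/ob vehicle fat and 12.35 ± 0.95 in wild type fat. Its log2 difference was −0.38 (95% interval −1.60 to 0.84), and it was 0.59 without wild type arrays 1 and 2. The Tef cluster lay below the array median on all 9 arrays and averaged 4.21 in ob/ob vehicle fat and 4.35 in wild type fat. Its log2 difference was −0.15 (95% interval −0.97 to 0.68).

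In VE-treated ob/ob fat, no clock gene was called against ob/ob vehicle. Dbp had the largest difference of the 10: it was 4.25-fold higher on the means, and every VE array lay above every ob/ob vehicle array, but its adjusted p was 0.589. Per3 stood 1.08 log2 units above ob/ob vehicle, with ranges that overlapped. At limma's unadjusted p under 0.05, these 2 of 10 genes passed. With a fold over 1.1 required as well, the same 2 and 893 of 19572 clusters passed. Only 0.0255% of clusters (5 of 19572, all higher in VE) were called between these groups, so a count of 0 is near the background. The median log2 difference was −0.0017 over the 10 genes and −0.023 over all clusters, with 5 clock genes above 0 and 5 below.

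Dbp encodes a D-box-binding activator that is known as a direct output of CLOCK and BMAL1. Its level was 14.01, 13.57 and 14.59 on the VE arrays, against 12.98, 11.72 and 11.21 on the ob/ob vehicle arrays. The lowest VE array lay above the highest ob/ob vehicle array. On average Dbp differed by 2.09 ± 0.55 log2 units (SE; 95% interval 0.87 to 3.31; limma adjusted p = 0.589), and it ranked 112 by p among all clusters. Groups without overlap were found in 12.6% of all clusters, and in 1 of the 10 clock genes (Dbp). Leaving out each array in turn gave differences of 1.71 to 2.59, with a limma adjusted p of 0.193 or higher. Of 20 alternatives, 0 passed.

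Per3 was at 9.48, 9.99 and 10.67 in VE fat, against 8.98, 9.50 and 8.42 in ob/ob vehicle fat. VE array 1 lay just under ob/ob vehicle array 2, and the other VE arrays lay above all ob/ob vehicle arrays. The mean difference of 1.08 ± 0.37 log2 units had a 95% interval of 0.25 to 1.91 and a limma adjusted p of 0.936.

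The remaining genes had small differences or wide intervals. Per1 was at 7.79, 8.70 and 8.31 in VE fat, a log2 difference of 0.62 from ob/ob vehicle (95% interval −0.52 to 1.76), and −0.033 without ob/ob vehicle array 3. Per2 was at 7.81, 8.61 and 8.36 in VE fat, against 7.88, 8.15 and 7.51 in ob/ob vehicle fat, a log2 difference of 0.41 (95% interval −0.37 to 1.2). Both Per genes overlapped between the groups.

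Nr1d1 was at 10.82, 11.95 and 11.53 in VE fat, and Nr1d2 at 11.29, 11.06 and 11.38. Their log2 differences from ob/ob vehicle were −0.15 (95% interval −0.96 to 0.66) and −0.19 (95% interval −0.73 to 0.35). Clock differed by −0.25 (−1.04 to 0.55), Npas2 by −0.28 (−0.86 to 0.29) and Cry1 by −0.29 (−0.97 to 0.38). Tef differed by 0.15 (−0.68 to 0.98), and its highest value, 5.25, was on VE array 3. Each of these 6 intervals reaches past 0.5 log2 units in at least 1 direction, so they do not show that the levels were alike.

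**Figure D2:**
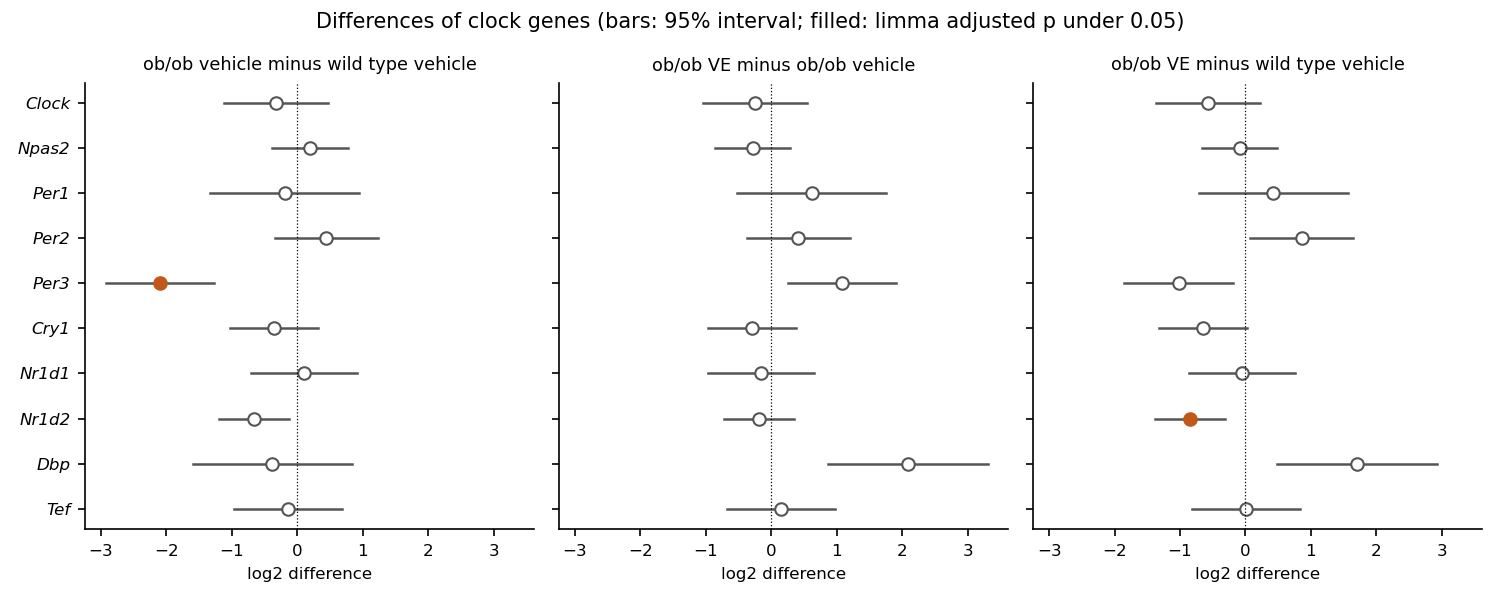
Log2 difference of each clock gene (horizontal axis) in ob/ob vehicle minus wild type, ob/ob VE minus ob/ob vehicle and ob/ob VE minus wild type; bars are 95% intervals and filled points passed limma's adjusted p under 0.05. Per3 (−2.10, left panel) and Nr1d2 (−0.85, right panel) passed, and Dbp lies farthest right in the middle and right panels (2.09 and 1.71).

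Set against wild type, VE-treated ob/ob fat had 1 called clock gene: Nr1d2 fell, by 0.85 on the log2 scale (1.80-fold). Per3 was lower and Dbp higher on every VE array than on every wild type array, but neither passed (limma adjusted p = 0.0818 and 0.0530). Between these groups 20.0% of all clusters were called, and 37.2% did not overlap, against 1 called and 3 without overlap among the 10 clock genes. The median log2 difference was −0.072 over the 10 genes and −0.067 over all clusters. This comparison shares its wild type arrays with the first and its VE arrays with the second, so the 3 sets of differences are not independent.

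Nr1d2 was at 11.29, 11.06 and 11.38 in VE fat, against 12.36, 12.18 and 11.73 in wild type fat. All 3 VE arrays lay below all 3 wild type arrays. Nr1d2 differed by −0.85 ± 0.24 log2 units (SE; 95% interval −1.39 to −0.31; limma adjusted p = 0.0346). The call was lost without VE array 1, 2 or 3 (limma adjusted p = 0.0879, 0.120 and 0.0681), without ob/ob vehicle array 2 (0.0544) and without wild type array 1 or 2 (0.0934 and 0.0762). It was also lost with each array centred on its median (limma adjusted p = 0.0604), with only these groups in the fit (0.0661), and without wild type arrays 1 and 2 together (−0.49, 0.353). Wild type array 3 had both the lowest epithelium markers and the lowest Nr1d2 of its group. The other wild type arrays did not keep that order: epithelium markers were highest on array 2 and Nr1d2 on array 1. A relation between these levels was not tested.

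Per3 was at 9.48, 9.99 and 10.67 in VE fat, against 10.70, 11.42 and 11.08 in wild type fat. VE array 3 came within 0.03 log2 units of wild type array 1. Its log2 difference was −1.02 ± 0.37 (95% interval −1.85 to −0.19). It passed in only 2 of 20 alternatives, and limma adjusted p over all of them reached 0.258. These 2 were after quantile normalization (−1.38, limma adjusted p = 0.0248) and without VE array 3 (−1.33, limma adjusted p = 0.0489). Without wild type arrays 1 and 2 the difference was −1.03.

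Dbp was at 14.01, 13.57 and 14.59 in VE fat, against 13.27, 12.40 and 11.38 in wild type fat. The groups did not overlap, and the wild type arrays spread over more than a log2 unit. Dbp differed by 1.71 ± 0.55 log2 units (95% interval 0.49 to 2.93). It passed in 6 of 20 alternatives, and limma adjusted p over all of them reached 0.196. With an array left out it passed in 2 of 9 fits, and the highest limma adjusted p was 0.165. Those that passed were without wild type array 1 (2.17, limma adjusted p = 0.0270) and without ob/ob vehicle array 1 (0.0362). It also passed with median centring (1.81, limma adjusted p = 0.0419) and without the dimmest 30% of clusters (0.0437). Without wild type arrays 1 and 2 the difference was 2.68.

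Per2 was at 7.81, 8.61 and 8.36 in VE fat, against 7.0, 7.07 and 8.13 in wild type fat. Wild type array 3 lay inside the VE range and the other wild type arrays lay below it. For Per2 the log2 difference was 0.86 ± 0.35 (95% interval 0.07 to 1.65; limma adjusted p = 0.116). It was 1.23 without wild type array 3 (limma adjusted p = 0.0171), and 0.13 without wild type arrays 1 and 2 (limma adjusted p = 0.881). Of the others, Cry1 differed by −0.65 (95% interval −1.33 to 0.02), Clock by −0.57 (−1.37 to 0.22), Per1 by 0.43 (−0.71 to 1.57), Npas2 by −0.09 (−0.66 to 0.49), Nr1d1 by −0.06 (−0.87 to 0.75) and Tef by 0.0033 (−0.82 to 0.83). None of these 6 passed.

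Over the 3 groups at once, limma's moderated F test called Per3 (adjusted p = 0.010) and Dbp (adjusted p = 0.049), 2 of 10, against 15.7% of all clusters. The mean order for Per3 was 10.05 in VE, 8.97 in ob/ob vehicle and 11.07 in wild type, and of its neighbours in that order neither VE and wild type nor VE and ob/ob vehicle differed past the adjusted threshold. For Dbp the means were 14.06 in VE, 11.97 in ob/ob vehicle and 12.35 in wild type, with the vehicle groups overlapping. For Nr1d2 they were 11.24 in VE, 11.43 in ob/ob vehicle and 12.09 in wild type (limma's F, adjusted p = 0.073). The Dbp call was at the threshold and was lost without any one of the 3 VE arrays, ob/ob vehicle array 2 or 3, or wild type array 2, each of which left 1 clock gene called (Per3). Without wild type array 3 the F test called 4 clock genes (Per2, Per3, Nr1d2 and Dbp).

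Within groups, several clock genes were low or high on the same arrays. Of the 10 clock genes, ob/ob vehicle array 3 held the lowest level of its group in 8 (all but Clock and Cry1), and VE array 1 held it in 6. The same counts were not made over all clusters, so they do not show a pattern particular to clock genes. Among the 7 that belong to the Per, Nr1d and D-box branches (Per1, Per2, Per3, Nr1d1, Nr1d2, Dbp and Tef), known in mouse tissues to peak in the opposite part of the day to Arntl, these counts were 7 and 5, though Tef lay only 0.037 below its group mean on the first of these arrays. Arntl, the gene of BMAL1, was highest of its group on those same arrays. Other clock genes did not all keep to this split. Npas2, which can stand in for CLOCK, was lowest of its group on both arrays (6.71 and 6.47). Ciart, one of the other core clock genes analysed, was lowest on ob/ob vehicle array 3 (4.54), but in VE on array 3 (5.56) and not on array 1 (5.99). Arntl was at 7.47, 6.77 and 6.72 in VE fat, 7.78, 7.81 and 9.08 in ob/ob vehicle fat, and 6.87, 7.58 and 8.83 in wild type fat. On ob/ob vehicle array 3, Per1 lay 1.31 log2 units below its group mean, Dbp 0.76 below and Arntl 0.86 above. In wild type fat the pattern was mixed: array 3 was highest for Arntl (1.07 above its mean) and lowest for Dbp (0.97 below) and Nr1d2, but highest for Per1, Per2, Nr1d1 and Tef. Hours of collection per animal were not given, and their part in this scatter was not tested.

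**Figure D3:**
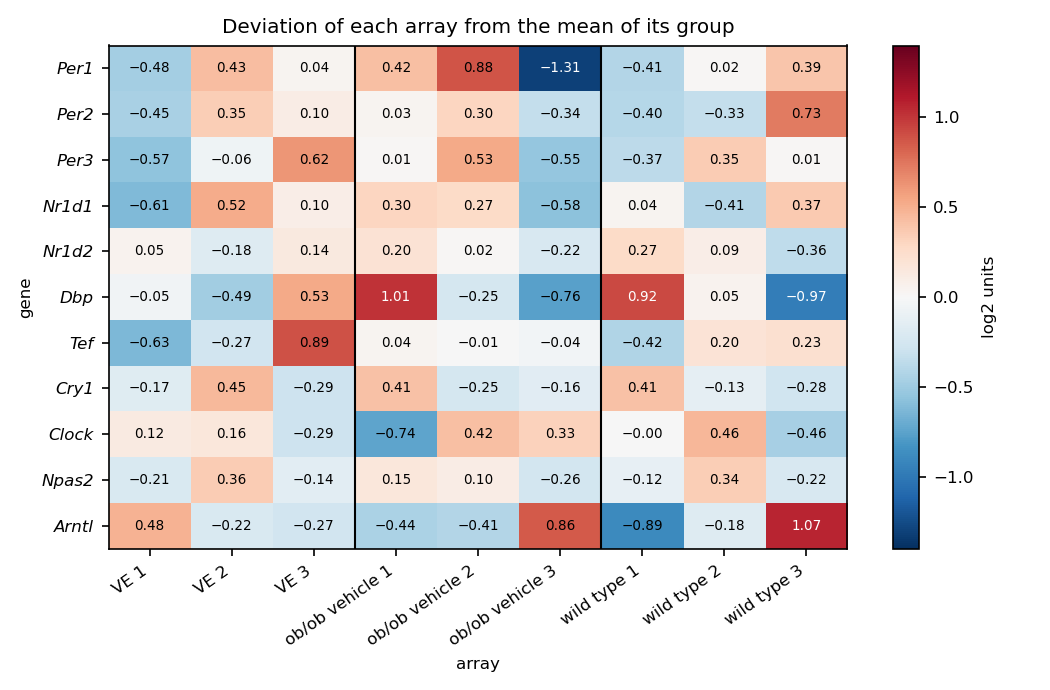
Deviation of each array (columns) from the mean of its group, in log2 units (colour and printed value), for the 10 clock genes and Arntl (rows); vertical lines separate VE, ob/ob vehicle and wild type. On ob/ob vehicle array 3 the 7 genes from Per1 to Tef in the top rows are all below their group mean, and Arntl is 0.86 above it.

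Each of the other 9 clock genes was set against Dbp across the 6 ob/ob arrays, and none of the 9 relations passed. The smallest exact permutation p was 0.0611, for Per3 (Benjamini-Hochberg adjusted 0.55, two-sided). The Dbp levels of VE and ob/ob vehicle arrays form separate ranges, so these relations cannot be told apart from the difference between the groups, and no coefficient is given. Among 7923 genes above the array median on every array, the deviations most like the mean standardized deviation of the 7 genes above were those of Rusc2 (r = 0.987), Rela (0.960), Phc2 (0.939), Pemt (0.936) and Imp4 (0.935). These are descriptions over 9 arrays in 3 groups, picked as the highest of all genes searched, and all genes share the RNA of each array.

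The other core clock genes were called no more often than all clusters were. Of 11 analysed, 1 was called in ob/ob vehicle against wild type, Rora, which rose, against 14.1% of all clusters called. Rora encodes ROR alpha, the activator that competes with the REV-ERBs at the Arntl promoter. Rora was at 9.53, 10.09 and 9.89 in ob/ob vehicle fat, against 7.93, 9.17 and 8.86 in wild type fat, a log2 difference of 1.18 ± 0.35 (limma adjusted p = 0.0473). In VE fat it was at 10.06, 10.72 and 10.67, or 1.83 ± 0.35 above wild type (limma adjusted p = 0.0055). There too it was the 1 gene called of the 11, against 20.0% of all clusters called. Rora has 2 further clusters with lower means, which differed by 0.32 and −0.72 in ob/ob vehicle and by 0.65 and −0.69 in VE, none called, so its clusters disagree. The ob/ob vehicle call was lost without any one array other than wild type 2 or 3, with limma adjusted p up to 0.157 (without ob/ob vehicle array 2). Without wild type arrays 1 and 2 together, Rora stood 0.98 above wild type in ob/ob vehicle and 1.62 above it in VE.

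Between VE and ob/ob vehicle none of the 11 was called, and 1 passed at an unadjusted p under 0.05. That gene was Arntl, lower on every VE array than on every ob/ob vehicle array, with a log2 difference of −1.24 ± 0.51 (95% interval −2.38 to −0.09; limma adjusted p = 1.00). Against wild type it differed by −0.77 in VE (limma adjusted p = 0.32). The median log2 difference over the 11, VE minus ob/ob vehicle, was −0.083. Over the same genes it was 0.33 in ob/ob vehicle against wild type, with 7 above 0 and 4 below, and 0.057 in VE against wild type. Other factors of the loop with the highest test values were Nfil3, a D-box repressor, at 0.61 in VE against ob/ob vehicle (limma adjusted p = 1.00), and Bhlhe40, an E-box repressor, at 0.95 in ob/ob vehicle against wild type (limma adjusted p = 0.18).

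**Figure D4:**
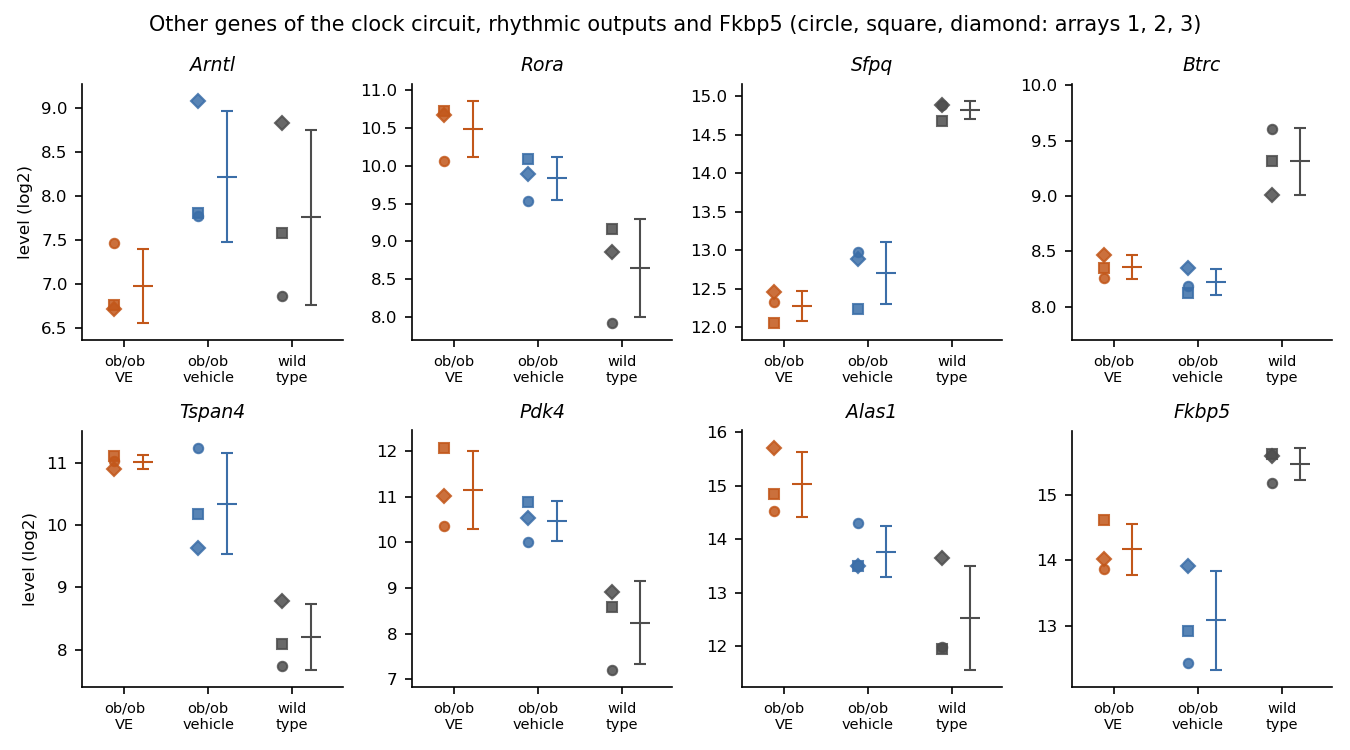
Log2 array level (vertical axes, each with its own range) of Arntl, Rora, Sfpq, Btrc, Tspan4, Pdk4, Alas1 and Fkbp5 in ob/ob VE, ob/ob vehicle and wild type fat; points are arrays 1, 2 and 3 (circle, square, diamond) and bars are the mean ± SD of 3 arrays. Sfpq lies at 12.06 to 12.98 on all ob/ob arrays against 14.68 to 14.89 in wild type, and Arntl is lower on all VE arrays than on all ob/ob vehicle arrays.

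Of 14 modifiers and cofactors of clock proteins analysed, 2 fell in ob/ob vehicle against wild type: Sfpq and Btrc. That share is near the 14.1% of all clusters called. Sfpq encodes an RNA- and DNA-binding protein that has been found with the PER complex. It was at 12.98, 12.24 and 12.88 in ob/ob vehicle fat, against 14.88, 14.68 and 14.89 in wild type fat, with a log2 difference of −2.12 ± 0.25 (limma adjusted p = 4.67e-04). Btrc encodes the F-box protein that marks phosphorylated PER for degradation, and it was 1.09 log2 units lower (SE 0.23, limma adjusted p = 0.0099), but without wild type arrays 1 and 2 it was 0.79 lower with a limma adjusted p of 0.120. The same 2 genes fell in VE against wild type, with log2 differences of −2.54 for Sfpq (limma adjusted p = 1.56e-04) and −0.95 for Btrc (limma adjusted p = 0.0153), against 20.0% of all clusters called. The Btrc call in VE was lost without VE array 1 or 2 (limma adjusted p = 0.0611 and 0.0543) and without wild type arrays 1 and 2 (0.174). Between VE and ob/ob vehicle 0 of 14 were called and 0 passed at an unadjusted p under 0.05. Over all clusters, 893 of 19572 passed at that p and a fold over 1.1. Casein kinase 1 epsilon (Csnk1e), which phosphorylates PER proteins, had a log2 difference of 0.72 between ob/ob vehicle and wild type (limma adjusted p = 0.163). Medians over the 14 were −0.19 in ob/ob vehicle against wild type, −0.010 in VE against ob/ob vehicle and −0.090 in VE against wild type.

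Of 13 genes that are rhythmic in many tissues 12 were measured (Por was not analysed here). In ob/ob vehicle against wild type 3 rose and 1 fell, against 14.1% of all clusters called, with a median log2 difference of 0.94. Cdkn1a, which encodes the cell cycle inhibitor p21, rose by 5.20 ± 0.62 (limma adjusted p = 4.62e-04), Tspan4 by 2.13 ± 0.40 (limma adjusted p = 0.0064) and Pdk4, the kinase that shuts off pyruvate dehydrogenase, by 2.23 ± 0.52 (limma adjusted p = 0.0175). Fmo2 fell by 1.49 (SE 0.35, limma adjusted p = 0.0192). The Pdk4 call was lost without ob/ob vehicle array 2 or 3 (limma adjusted p = 0.0764 and 0.0581), and the Fmo2 call without ob/ob vehicle array 1 or 2 or wild type array 1 (0.0589, 0.0757 and 0.0528). Without wild type arrays 1 and 2 the calls of Tspan4 (1.56, limma adjusted p = 0.0889), Pdk4 (1.55, 0.131) and Fmo2 (−1.32, 0.138) were lost and that of Cdkn1a was not (3.42, 3.87e-04).

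In VE against wild type 5 of the 12 rose: Cdkn1a by 5.68, Pdk4 by 2.92, Tspan4 by 2.80, Alas1 by 2.49 and Coq10b by 1.43 on the log2 scale (limma adjusted p from 2.47e-04 to 0.0141), against 20.0% of all clusters called. Alas1, the rate-limiting enzyme of heme synthesis and a known clock output, was at 14.52, 14.85 and 15.70 in VE fat, 14.31, 13.50 and 13.49 in ob/ob vehicle fat, and 11.99, 11.95 and 13.65 in wild type fat. Without wild type arrays 1 and 2 the log2 differences were 3.90 for Cdkn1a, 2.24 for Pdk4, 2.23 for Tspan4 and 1.80 for Coq10b, all still called, and 1.37 for Alas1, whose call was lost (limma adjusted p = 0.0985). The Coq10b call was lost without VE array 1 or 3 (limma adjusted p = 0.0578 and 0.0518). Against ob/ob vehicle 0 of 12 were called, with 10 above 0, a median of 0.51 and 2 at an unadjusted p under 0.05. Those were Alas1 (1.26 ± 0.49, limma adjusted p = 1.00, no overlap) and Wee1, a cell cycle kinase gene that CLOCK and BMAL1 are known to drive (0.93 ± 0.41, limma adjusted p = 1.00).

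Per1 is also switched on directly by glucocorticoids and by other acute signals, so 14 such genes were listed and 13 measured (Crem was not analysed here). In ob/ob vehicle against wild type 2 fell and 1 rose, against 14.1% of all clusters called, with a median of −0.34. Fkbp5, a glucocorticoid-induced co-chaperone of the glucocorticoid receptor, was at 12.43, 12.92 and 13.91 in ob/ob vehicle fat, against 15.18, 15.62 and 15.59 in wild type fat. Its log2 difference was −2.38 ± 0.37 (limma adjusted p = 0.0024). Zbtb16 (−1.54, limma adjusted p = 0.0497) and Hsd11b1, the enzyme that regenerates active glucocorticoid (2.18, limma adjusted p = 0.0419), passed near the threshold. Without wild type arrays 1 and 2 they moved apart: Hsd11b1 was 0.87 and lost its call (limma adjusted p = 0.491), and Zbtb16 was −2.56 (limma adjusted p = 0.0066). Leaving out one array at a time, Zbtb16 passed in 1 of 9 fits (adjusted p from 0.0311 without wild type array 2 to 0.149 without ob/ob vehicle array 1) and Hsd11b1 in 2 of 9, those without VE array 1 or wild type array 3 (highest adjusted p 0.135, without ob/ob vehicle array 1).

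In VE fat Fkbp5 was at 13.87, 14.61 and 14.02, which was 1.08 ± 0.37 above ob/ob vehicle (limma adjusted p = 0.936) and overlapped it by 1 array. Klf9, another glucocorticoid-induced gene, was 0.79 above ob/ob vehicle (limma adjusted p = 0.963). These were the 2 of 13 at an unadjusted p under 0.05 between VE and ob/ob vehicle, where 0 of 13 were called and the median was 0.087. Over all clusters, 893 of 19572 passed at that p and a fold over 1.1. In VE against wild type 1 rose (Hsd11b1, 2.42) and 3 fell (Fkbp5, Egr1 and Ier2), against 20.0% of all clusters called, with a median of −0.13. Ier2 was not among the genes to be named and was chosen after its values were seen. Of the called genes, Fkbp5 (−1.30, limma adjusted p = 0.0352), Egr1 (−1.51, 0.0308) and Hsd11b1 (limma adjusted p = 0.0215) lost their calls when single arrays were left out, with adjusted p up to 0.120, 0.0965 and 0.0819. For Fkbp5 these were VE 1 or 3, ob/ob vehicle 2 and wild type 2 or 3, for Egr1 any VE array and wild type 1 or 3, and for Hsd11b1 VE 2 or 3 and wild type 1 or 2. Without wild type arrays 1 and 2 together these calls were lost too, at 1.12 for Hsd11b1 (limma adjusted p = 0.323), −1.78 for Egr1 (0.0686) and −1.42 for Fkbp5 (0.109).

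Macrophage and epithelium markers moved with both contrasts against wild type. In ob/ob vehicle against wild type, 11 of 11 macrophage markers rose (median log2 difference 4.75) and 13 of 14 epithelium markers fell (median −4.08). Of the stromal progenitor markers 1 of 6 rose, near the 14.1% of all clusters called. None of the adipocyte (11), T, B and NK cell (9), endothelium (7) or skeletal muscle (8) markers was called. In VE against wild type 11 of 11 macrophage markers rose and 13 of 14 epithelium markers fell again, against 20.0% of all clusters called. There 1 of 11 adipocyte, 1 of 9 T, B and NK cell and 2 of 6 stromal markers were higher. Between VE and ob/ob vehicle no marker of these 7 lists was called, and 1 adipocyte, 1 macrophage and 1 skeletal muscle marker passed at an unadjusted p under 0.05. Adipocyte markers averaged 16.05 to 16.43 in VE, 15.92 to 16.28 in ob/ob vehicle and 15.14 to 16.44 in wild type. The Lep transcript, whose protein product is inactive in ob/ob mice, was at 18.86, 19.02 and 18.75 in VE fat, 19.02, 19.24 and 18.77 in ob/ob vehicle fat, and 14.22, 13.22 and 16.72 in wild type fat.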

How the data were processed

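RNA of white adipose tissue was hybridised to 9 Clariom S mouse arrays, 3 per group, for 16 h from 100 ng. Per the labels and the series' design text, the authors scanned the arrays and normalized them with signal space transformation RMA in Transcriptome Analysis Console 4.0.2, and deposited log2 values per transcript cluster. The deposited table held 22206 clusters, of which 19572 had 1 gene symbol in the platform annotation, none had several and 2634 were not named and stayed out of the tests. Array values tend to understate differences of dim probes, and no detection p-value was used here.

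Here the log2 values were fitted as 3 group means over all 9 arrays with limma 3.58.1 (lmFit and eBayes, R 4.3.3), with Benjamini-Hochberg adjustment over the 19572 clusters and calls at adjusted p under 0.05. The fit was checked on simulated data with the same spread in every group. Here the wild type arrays varied more (median SD over clusters 0.41, against 0.26 in VE and 0.30 in ob/ob vehicle), which that check does not cover. An exact permutation test of 3 against 3 arrays cannot go below p = 0.1. Precision is limited by the number of arrays, and p-values measure the spread between arrays, which may be technical. The submitters' threshold, unadjusted p under 0.05 and fold over 1.1, was run as an alternative, as were other priors, scalings, filters and left-out arrays. For a gene with several clusters the one with the highest mean was used.

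The 10 members and the 12 gene lists (137 genes, 126 measured) were chosen with earlier results of these data known, so no list is independent evidence. Named were all members, and of each clock list per comparison the 2 genes with the highest and 2 with the lowest moderated t and any called gene with a fold over 2, of which the text gives those that the results turn on.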

Additional observations from a re-analysis of the deposited data

How the results depend on the processing

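Of 597 recomputed differences of clock genes, 550 kept their direction and side of the threshold, 9 lost a call, 11 gained one and 27 changed sign. Most had no call to lose, since the main fit called only Per3 in ob/ob vehicle and Nr1d2 in VE, each against wild type. All 9 lost calls were of Nr1d2. The Per3 difference between ob/ob vehicle and wild type passed in 20 of 20 alternatives, at −2.37 to −1.83; Nr1d2 between VE and wild type passed in 11 of 20. In ob/ob vehicle against wild type 2 clock genes were called instead of 1 after quantile normalization and at the submitters' threshold, and 1 to 2 with an array left out. In VE against ob/ob vehicle the submitters' threshold called 2 instead of 0. In VE against wild type 0 were called with only these groups fitted, 2 after quantile normalization, 2 without the dimmest 30% of clusters, 4 at the submitters' threshold, and 0 to 2 with an array left out, instead of 1. The F test called 1 to 4 with an array left out, instead of 2. The titles do not say that their numbers pair arrays. Deviations of same-numbered arrays correlated at −0.064 to 0.18 and those of other arrays at −0.27 to 0.16. Such weak correlations cannot show whether arrays were paired. With the number as a replicate block VE against wild type called 2 (Nr1d2 and Dbp, limma adjusted p = 0.0468 and 0.0399). Over all clusters, calls between VE and ob/ob vehicle (5) became 19 with only these groups fitted, 0 with the block or without empirical Bayes, 12 with a robust prior, 41 with array weights, 893 at the submitters' threshold, 19 without wild type arrays 1 and 2 and 0 to 21 with an array left out. Those between VE and wild type (3920) became 2536 without empirical Bayes and 6630 at the submitters' threshold, and those between ob/ob vehicle and wild type (2754) became 1814, 1675 and 5555 with only these groups, without empirical Bayes and at that threshold, with lowest counts of 2314 and 1641 when an array was left out. The F test called 2004 clusters instead of 3069 without wild type arrays 1 and 2. Signs that changed belonged to differences that were not called. Without wild type arrays 1 and 2, ob/ob vehicle minus wild type was 0.13 for Clock, −0.28 for Per2, −0.27 for Nr1d1, 0.59 for Dbp and −0.0067 for Junb, and VE minus wild type was 0.13 for Npas2 and −0.22 for Tef. Quantile normalization gave −0.18 for Nr1d1 in ob/ob vehicle against wild type. In VE against wild type, array weights gave 0.066 for Nr1d1 and −0.056 for Tef, and median centring 0.05 for Nr1d1 and 0.02 for Npas2. With an array left out, ob/ob vehicle minus wild type ranged from −0.56 to 0.045 for Clock, −0.64 to 0.46 for Per1, −0.11 to 0.39 for Nr1d1, −0.89 to 0.08 for Dbp and −1.17 to 0.058 for Hlf. VE minus ob/ob vehicle ranged from −0.033 to 1.06 for Per1, −0.44 to 0.15 for Nr1d1, −0.30 to 0.46 for Tef and −0.45 to 0.24 for Lonrf3. VE minus wild type ranged from −0.27 to 0.083 for Npas2, −0.32 to 0.25 for Nr1d1 and −0.44 to 0.32 for Tef. The cause of these shifts was not tested.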
